A study of Mus musculus with 66 samples.

Results

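The miR-30 family was measured in mouse plasma through 7 mature miRNAs, chosen by name. These are mmu-miR-30a-5p, mmu-miR-30b-5p, mmu-miR-30c-5p, mmu-miR-30d-5p and mmu-miR-30e-5p from the 5p arm and mmu-miR-30a-3p and mmu-miR-30e-3p from the 3p arm, the prefix standing for mouse. All 7 were among the 1826 miRNAs of the table. Plasma came from 13 male C3H mice, an inbred strain, of which 8 had hepatocellular carcinoma (HCC) and 5 did not (non-HCC). The labels place all 13 mice at more than 12 months after radiation and at 0 days before tumor detection, and the blood was drawn by cardiac puncture at necropsy. Spontaneous and radiation-induced tumors are both in the HCC group, and since the labels do not say which mouse had which, their values cannot be told apart. The same labels stand on tumor-free mice and on mice with spontaneous tumors. They therefore do not show which mice of either group were irradiated, and whether irradiation differed between the groups is not known here. The age of the mice is not given in the sources used here. The study asked which circulating miRNAs accompany HCC, and the comparison here is of the HCC with the non-HCC mice.

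A miRNA hairpin is cut into a 5p and a 3p arm, and 1 of the arms is usually loaded into the silencing complex and kept. Bases 2 to 8 of the mature miRNA, the seed, pair with target messages, so that miRNAs with a shared seed can act on overlapping sets of targets. The miR-30 family is abundant in many tissues, among them liver, kidney, heart and lung, and is known from work on epithelial identity, autophagy and fibrosis. In plasma, more cells releasing a miRNA and more miRNA released per cell cannot be told apart.

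The family is encoded by 3 pairs of neighbouring hairpin genes in the GRCm38 genome. Mir30a lies at chr1:23272269-23272339 and overlaps no other annotated gene. Mir30c-2 lies 19361 bases further at chr1:23291701-23291784, within an exon of Gm27028, a long noncoding RNA of the same strand. Mir30e at chr4:120772606-120772697 and Mir30c-1 at chr4:120769534-120769622, with 2983 bases between them, both lie on the minus strand in introns of Nfyc, which encodes a subunit of the transcription factor NF-Y. Mir30b at chr15:68337415-68337510 and Mir30d at chr15:68341208-68341289, with 3697 bases between them, lie on the minus strand in exons of noncoding transcripts. The mature miR-30c-5p is made from both Mir30c-1 and Mir30c-2, and its counts cannot be assigned to either gene.

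The hairpins of Mir30a and Mir30e are given here because the results turn on their arms. Capitals mark the 5p and the 3p mature miRNA, written 5′ to 3′ from RefSeq on GRCm38.p6, Mir30a on the plus and Mir30e on the minus strand.
Mir30a: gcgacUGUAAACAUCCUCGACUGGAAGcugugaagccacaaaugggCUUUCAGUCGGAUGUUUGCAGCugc
Mir30e: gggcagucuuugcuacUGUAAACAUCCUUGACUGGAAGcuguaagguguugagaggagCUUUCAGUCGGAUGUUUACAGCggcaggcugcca

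RefSeq sequences were matched for 5 of the 7 members, and the mature forms follow with the seed in capitals, since members of 1 arm differ outside it.
miR-30a-5p: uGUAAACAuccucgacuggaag
miR-30e-5p: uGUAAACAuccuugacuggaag
miR-30c-5p: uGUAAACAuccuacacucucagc
miR-30a-3p: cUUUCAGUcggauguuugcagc
miR-30e-3p: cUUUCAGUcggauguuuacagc
No RefSeq sequence was matched for miR-30b-5p, miR-30d-5p, miR-30b-3p and miR-30d-3p, so the seed counts here do not cover them. The 3 members of the 5p arm with a matched sequence share the seed GUAAACA. Of the 1563 miRNAs of the table with a RefSeq sequence, 4 carried it, or 0.256%, the fourth being miR-384-5p. Both members of the 3p arm have the seed UUUCAGU, which no other of the miRNAs with a matched sequence carried. With positions counted from 1 at the 5′ end, miR-30a-5p and miR-30e-5p differ in a single base (C13U, the base of miR-30a-5p first), and so do miR-30a-3p and miR-30e-3p (G18A, the base of miR-30a-3p first). Over 22 bases miR-30c-5p differs from miR-30a-5p in 5 positions and shares its first 12 bases. A read must therefore be correct at 1 base to be assigned to the a or the e member, and how often it was not was not tested.

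Counts are of unique molecular indices (UMIs), in which copies made by amplification are counted only once. Between 9513136 and 14247488 miRNA UMIs were counted per mouse. The members had from 241 UMIs, for miR-30e-3p in HCC mouse 3, to 267783, for miR-30a-5p in HCC mouse 2. Among the HCC libraries, 3 pairs were closely alike. The SD of the log2 ratio over 318 miRNAs was 0.248 between HCC mice 2 and 5, 0.254 between HCC mice 1 and 6 and 0.254 between HCC mice 3 and 7, against 0.397 or more for any other pair of mice. They still differed beyond counting error, with a chi-square per degree of freedom of 81.2 or more. Nothing in the labels marks them as the same animal. The ratios with an adjusted p under 0.05 are also given with the UMIs of each such pair summed, as 5 against 5 libraries. For the family share, the number of miRNAs called and the arms of Mir30a this is done at the end. Liver miRNAs, summed over 5 markers, made up 4.14% to 51.8% of the UMIs of HCC mice and 0.908% to 1.15% of those of non-HCC mice, and no listed liver marker was at 0 in any mouse. Red cell miRNAs, summed over 6 markers, made up 6.69% to 39.5% with HCC and 36.5% to 38.9% without, platelet and leukocyte miRNAs over 5 markers 1.23% to 3.25% and 2.75% to 4.90%, and muscle miRNAs over 5 markers 0.0383% to 1.47% and 0.0737% to 0.368%. These are shares of 1 total, so a higher share of liver miRNAs lowers the other shares. Against the spike-ins added to each sample, the mean log2 level of the liver list was 4.63 ± 0.88 (SE) higher in HCC mice. For the red cell list the difference was -0.63 ± 0.50, for platelets and leukocytes -0.78 ± 0.57 and for muscle 0.42 ± 0.80 (SE). The part of these differences in the results on miR-30 was not tested.

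The 7 members together made up a like share of the plasma miRNAs in both groups. The share of all miRNA UMIs was lowest at 3.25%, had a median of 3.83% and was highest at 5.50% in HCC mice. In non-HCC mice 1 to 5 it was 4.17%, 4.45%, 3.57%, 4.17% and 4.01%. The mean was 4.12% ± 0.721 (SD, n = 8) with HCC and 4.07% ± 0.322 (SD, n = 5) without. All non-HCC mice lay within the range of the HCC mice, and the difference of 0.002 in the mean log2 share was far within the spread of either group (two-sided exact permutation test on the 1287 ways to split the mice, p = 0.983). With miR-122 left out of the total, the difference was 0.38 (exact permutation p = 0.0606). No share of a member in a mouse had a 95% Wilson interval wider than 0.334 percentage points, which covers counting error only.

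Levels of single members were compared as log2 of the count plus 1 UMI, on a library scale set by the mean count of both spike-ins, UniSP2 and UniSP4. UniSP2 had 165794 to 938898 UMIs per mouse and UniSP4 225 to 1008, so this scale is nearly that of UniSP2 alone. The scale was lowest in HCC mice 5 and 2, at 0.347 and 0.366 of its geometric mean over the mice. These mice also had the highest levels of each member. MiR-30a-5p, the 5p arm of Mir30a, was lowest at 15.46, had a median of 17.66 and was highest at 19.54 in the 8 HCC mice. The 5 non-HCC mice had 16.06, 16.65, 15.93, 16.71 and 17.19. HCC mice thus lay on both sides of the non-HCC mice, with 5 of them above all and 2 below all non-HCC mice. EdgeR's quasi-likelihood test put the log2 fold change at 1.63 ± 0.71 (SE, adjusted p = 0.196). Limma on the log2 levels gave 1.02 (limma adjusted p = 0.606), and permutation of these levels gave an exact permutation p of 0.198.

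MiR-30a-3p, the other arm of that hairpin, ranged from 10.35 over a median of 12.85 to 15.07 in HCC mice. Non-HCC mice 1 to 5 had 10.86, 11.90, 10.85, 11.69 and 12.22. Again 5 HCC mice lay above and 2 below all non-HCC mice. The fitted log2 fold change was 2.04 ± 0.79 (SE, edgeR adjusted p = 0.131). DESeq2, given size factors from the spike-ins, placed it past the threshold (adjusted p = 0.0255). On the same scale limma on the log2 levels gave 1.25 (limma adjusted p = 0.545), and the groups did not differ by permutation of the levels (exact permutation p = 0.179).

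MiR-30e-5p, from the intron of Nfyc, had levels of 15.86 to 18.94 with a median of 16.56 in HCC mice. The values in non-HCC mice were 16.79, 17.30, 16.68, 17.35 and 18.28. Here 5 of the 8 HCC mice lay below all non-HCC mice and 2 above. The fitted log2 fold change was 0.18 ± 0.63 (SE, edgeR adjusted p = 0.953) and turned to -0.54 with TMM factors, a scale computed from the miRNA counts themselves (edgeR adjusted p = 0.339).

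MiR-30e-3p was the member with the fewest UMIs, with levels of 7.05 to 12.01 and a median of 8.75 in HCC mice. Non-HCC mice had 8.94, 10.85, 9.36, 9.86 and 11.76, and 4 HCC mice lay below and 2 above all of them. Here the fitted log2 fold change was -0.11 ± 0.80 (SE, edgeR adjusted p = 0.972). It depended on the scale, with -1.12 under TMM factors (edgeR adjusted p = 0.179) and -1.09 with total UMIs (edgeR adjusted p = 0.127). DESeq2 with its own size factors gave -1.08 (adjusted p = 0.149). The value also depended on the method, as limma on log2 levels gave -0.84 (limma adjusted p = 0.770) on the spike-in scale, where edgeR gave -0.11.

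MiR-30c-5p, with its 2 gene copies, had levels of 12.79 to 16.72 with a median of 14.22 in HCC mice and of 13.84, 14.96, 14.04, 14.76 and 15.78 in non-HCC mice. The groups overlapped (log2 fold change 0.44 ± 0.70, SE, edgeR adjusted p = 0.865), and the sign turned with TMM factors (-0.49). MiR-30d-5p had levels of 15.55 to 18.68 with a median of 16.98 in HCC mice and of 16.52, 16.87, 16.49, 17.09 and 17.54 in non-HCC mice. It was the member with the smallest fitted standard error (log2 fold change 0.63 ± 0.61, SE, edgeR adjusted p = 0.680), and here too the sign turned with TMM factors (-0.18). MiR-30b-5p, with the fewest UMIs of the 5p arm, had levels of 11.16 to 15.14 with a median of 11.97 in HCC mice and of 12.23, 12.36, 11.65, 12.61 and 13.46 in non-HCC mice (log2 fold change 0.98 ± 0.74, SE, edgeR adjusted p = 0.564). In each of these 3 members 2 or 3 HCC mice were above and 2 to 4 below all non-HCC mice.

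**Figure D1:**
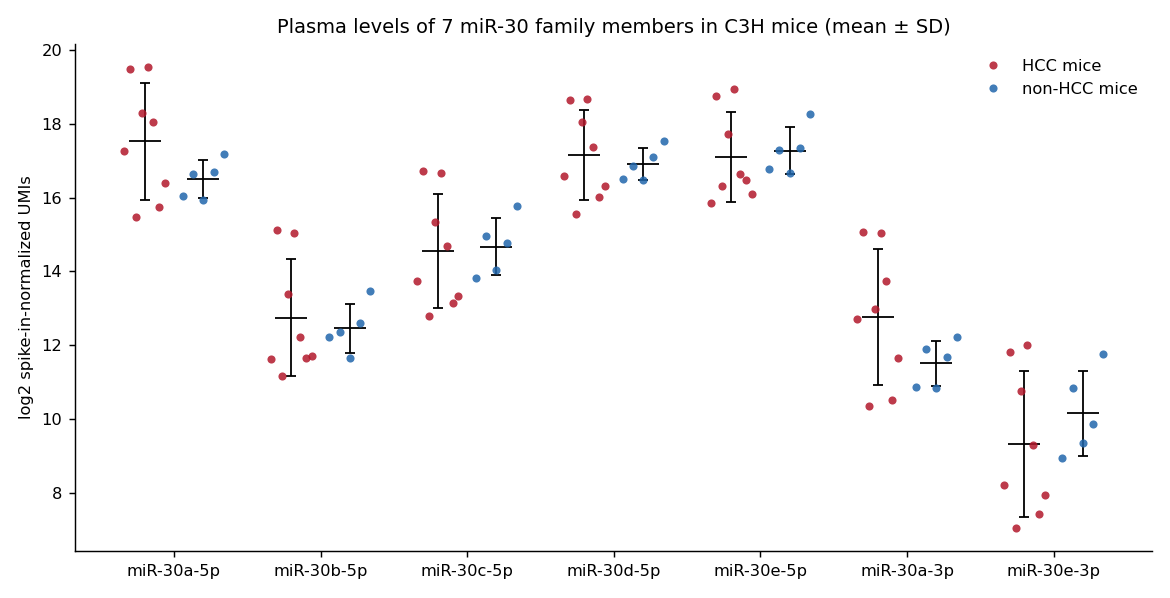
Level of each miR-30 member in each mouse, as log2 spike-in-normalized UMIs, for 8 HCC mice (red) and 5 non-HCC mice (blue), with the mean and SD of each group. HCC mice spread more widely than non-HCC mice in all 7 members, from 15.46 to 19.54 in miR-30a-5p against 15.93 to 17.19, and the groups overlap in each.

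None of the 7 members, 0 of 7, passed an adjusted p of 0.05, where edgeR called 109 of all 1452 miRNAs tested, or 7.51%, each of them higher in HCC mice. At an unadjusted p under 0.05, edgeR gave mmu-miR-30a-5p (p = 0.0311) and mmu-miR-30a-3p (p = 0.0161) on the spike-in scale, as did DESeq2, and limma on the log2 values gave 0 of 7. On scales computed from the miRNAs, miR-30e-3p joined these 2 as lower in HCC mice, with edgeR under TMM factors (p = 0.0348) or total UMIs (p = 0.0212) and with DESeq2 under its own size factors (p = 0.0323). With TMM factors edgeR called 0 of 7 members against 9.57% of all miRNAs, of which 7.37% were higher and 2.2% lower. In no member did the levels separate all HCC from all non-HCC mice, which 1.52% of all miRNAs did on the spike-in scale, each higher, and 3.72% higher and 2.0% lower with TMM factors. The scale moves all miRNAs of a mouse together. Over the 1452 miRNAs the median log2 fold change was 0.78 on the spike-in scale and 0.17 with TMM factors. Relative to that median, miR-30a-5p and miR-30a-3p were higher on both scales, with 0.67 and 1.01 under TMM factors, and miR-30c-5p, miR-30d-5p, miR-30e-5p and miR-30e-3p lower on both. MiR-30b-5p, at 0.98 on the spike-in scale and 0.01 with TMM factors, lay above the median on the first and below it on the second.

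**Figure D2:**
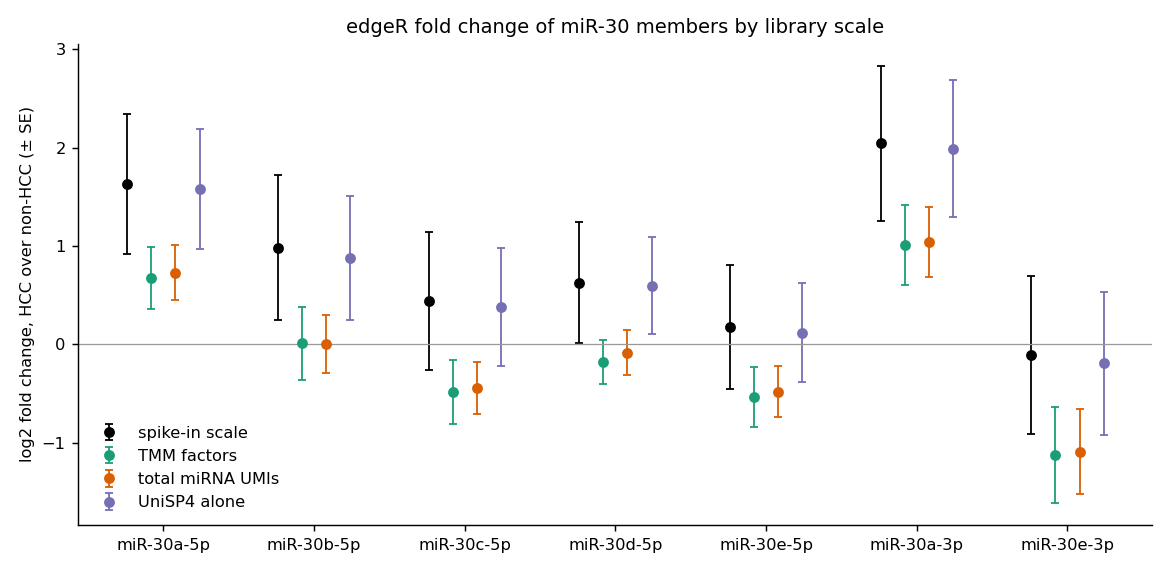
Log2 fold change of HCC over non-HCC mice for each member, with its standard error, from edgeR under 4 library scales: the mean of both spike-ins, TMM factors, total miRNA UMIs and UniSP4 alone. Both arms of Mir30a stay above 0 on all 4 scales, with 0.67 the lowest value of miR-30a-5p and 1.01 that of miR-30a-3p, while miR-30c-5p, miR-30d-5p and miR-30e-5p change sign.

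The make-up of the family differed between the groups. MiR-30a-5p accounted for 24.3% to 46.4% of the UMIs of the 7 members in HCC mice, with a median of 38.9%. In non-HCC mice 1 to 5 it accounted for 22.97%, 24.03%, 22.1%, 23.7% and 20.4%. Each HCC mouse was above each non-HCC mouse, HCC mice 3 and 7 narrowly, with 24.3% and 24.4%. Against the summed members, 7.51% of 253 miRNAs with at least 100 UMIs in each mouse were separated upward in this way and 7.51% downward. MiR-30e-5p had the most UMIs of the members in all 5 non-HCC mice, with 38.1%, 37.8%, 37.2%, 36.99% and 43.4%. In HCC mice it had 17.3% to 43.99%, with a median of 25.99%, and it was below all non-HCC mice in 6 of 8. MiR-30d-5p had a share of 22.5% to 32.1% with HCC and 25.9% to 32.7% without, with 3 HCC mice below all non-HCC mice. In the same order of groups, miR-30c-5p had 3.82% to 6.10% and 4.92% to 7.68%, miR-30b-5p 0.816% to 2.03% and 1.14% to 1.62%, miR-30a-3p 0.649% to 2.32% and 0.627% to 0.896%, and miR-30e-3p 0.0709% to 0.221% and 0.165% to 0.471%.

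**Figure D3:**
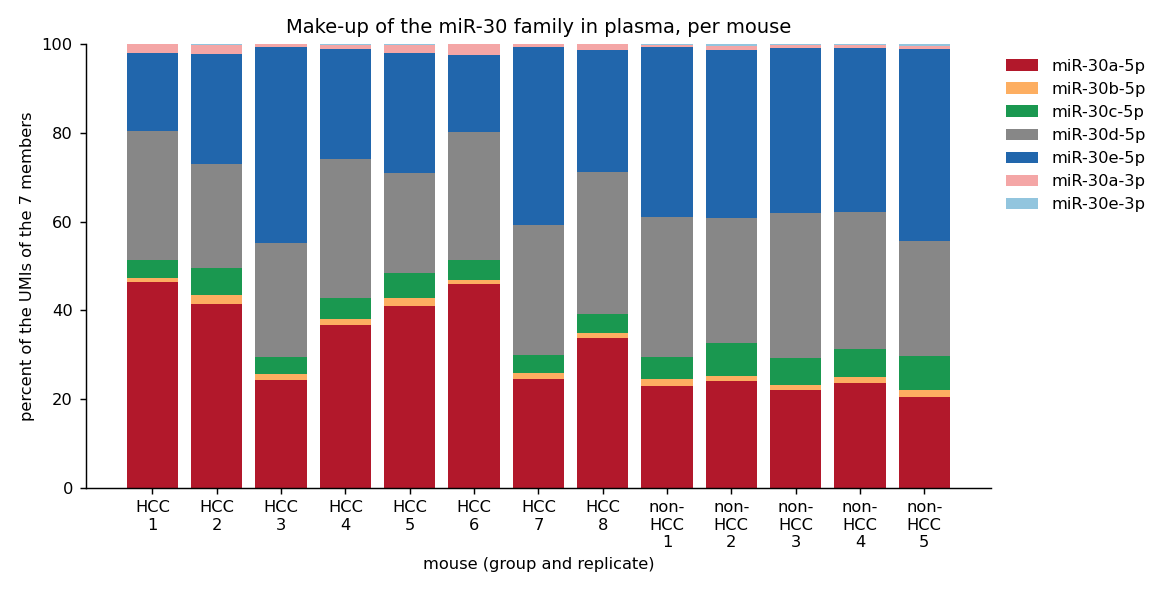
Share of each member in the UMIs of the 7 members, in percent, for each of the 13 mice. MiR-30a-5p takes 24.3% to 46.4% with HCC and 20.4% to 24.03% without, and HCC mice 3 and 7 look most like the non-HCC mice.

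A ratio of 2 members within a mouse does not depend on the library scale. Compared were 9 ratios, within genomic pairs, between pairs and between arms, and p-values were adjusted over these 9. The ratios were chosen with earlier results of these data known, and the adjustment does not cover that choice. A ratio also carries how well each miRNA is captured in library construction, so only its difference between the groups is read.

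MiR-30a-5p, whose gene lies beside Mir30c-2 on chromosome 1, stood higher against miR-30c-5p in HCC mice. The log2 ratio of miR-30a-5p to miR-30c-5p was lowest at 2.59, had a median of 2.91 and was highest at 3.52 in HCC mice. In non-HCC mice 1 to 5 it was 2.22, 1.69, 1.89, 1.95 and 1.41. Each HCC mouse thus lay above each non-HCC mouse. The mean was 2.97 ± 0.32 (SD, n = 8) with HCC and 1.83 ± 0.30 (SD, n = 5) without, a 2.20-fold difference in the ratio (exact two-sided permutation p = 0.000777, the smallest possible here, adjusted p = 0.00350). As background, of 252 miRNAs with at least 100 UMIs in each mouse, 13.5% were separated in the same way when set against miR-30c-5p, and 2.78% the opposite way. With the alike HCC libraries summed, the difference was 1.14 on the log2 scale and the groups remained apart (exact permutation p = 0.00794, the smallest possible with 5 against 5, adjusted p = 0.0238).

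The ratios named for the pairs on chromosomes 4 and 15 gave no such difference. That for chromosome 4 uses the same miR-30c-5p counts, made from both gene copies. The 2 ratios to miR-30c-5p therefore compare miR-30a-5p and miR-30e-5p, and do not tell the pairs on chromosomes 1 and 4 apart. For miR-30e-5p to miR-30c-5p the log2 ratio was 1.95 to 3.53 with a median of 2.33 in HCC mice, and 2.95, 2.34, 2.64, 2.59 and 2.50 in non-HCC mice. This gave a difference of -0.06 with a standard error of 0.23 (exact permutation p = 0.832, adjusted p = 0.915). The mice with HCC numbered 3 and 7, at 3.53 and 3.31, exceeded all non-HCC mice, and 4 other HCC mice below all of them. For miR-30b-5p to miR-30d-5p the log2 ratio was -5.15 to -3.53 with a median of -4.50 in HCC mice, and -4.29, -4.51, -4.85, -4.49 and -4.07 in non-HCC mice. The difference was 0.03 with a standard error of 0.24 (exact permutation p = 0.915, adjusted p = 0.915), and 2 HCC mice lay above and 2 below all non-HCC mice.

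Between the pairs, miR-30a-5p was also higher against miR-30d-5p and miR-30e-5p. The log2 ratio of miR-30d-5p to miR-30a-5p was -0.87 to 0.26 with a median of -0.45 in HCC mice, and 0.46, 0.23, 0.57, 0.38 and 0.35 in non-HCC mice. In 7 of 8 HCC mice the ratio was below all non-HCC mice, HCC mouse 7 being the exception, and set against miR-30d-5p 8.33% of 252 miRNAs were fully separated upward and 3.97% downward (difference -0.77 with a standard error of 0.16, exact permutation p = 0.00544, adjusted p = 0.0163). With the alike libraries summed the difference was -0.72 (exact permutation p = 0.00794, adjusted p = 0.0238).

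The log2 ratio of miR-30a-5p to miR-30e-5p, which differ in 1 base, was -0.85 to 1.41 with a median of 0.58 in HCC mice, and -0.73, -0.65, -0.75, -0.64 and -1.09 in non-HCC mice. There were thus more UMIs of miR-30e-5p than of miR-30a-5p in all 5 non-HCC mice and in HCC mice 3 and 7, and fewer in the other 6 HCC mice. Set against miR-30e-5p, 7.94% of 252 miRNAs were fully separated upward and 1.98% downward. The difference was 1.20 with a standard error of 0.31 (exact permutation p = 0.0148, adjusted p = 0.0332). It did not pass with the alike libraries summed (difference 1.20, exact permutation p = 0.0397, adjusted p = 0.0893), nor when any mouse other than HCC mouse 3 or 7 was left out, with adjusted exact permutation p-values of up to 0.0955. The ratio of miR-30d-5p to miR-30e-5p had overlapping groups, with -0.77 to 0.74 and a median of 0.07 in HCC mice and -0.27, -0.43, -0.18, -0.26 and -0.74 in non-HCC mice (difference 0.43 with a standard error of 0.22, exact permutation p = 0.127, adjusted p = 0.229).

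**Figure D4:**
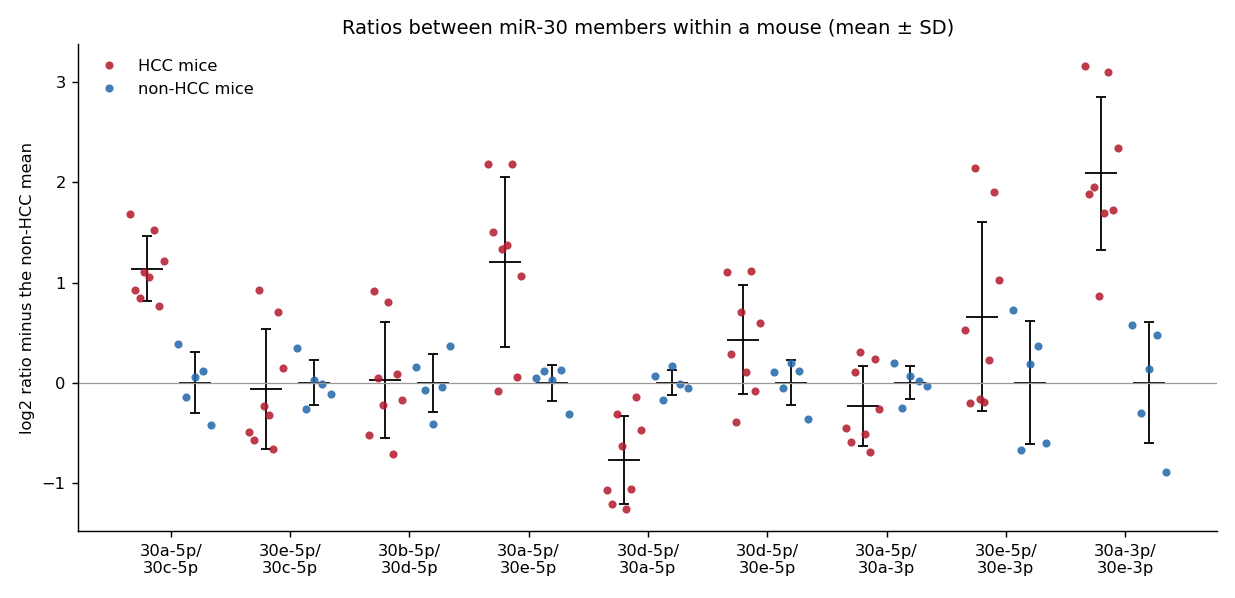
Log2 ratio of 2 members in each mouse, minus the mean of the non-HCC mice for that ratio, with the mean and SD of each group for 8 HCC (red) and 5 non-HCC mice (blue). Only the ratios 30a-5p/30c-5p and 30a-3p/30e-3p keep all HCC mice above all non-HCC mice, with mean differences of 1.14 and 2.09.

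The 3p arms, counted as separate molecules, also separated the groups. The log2 ratio of miR-30a-3p to miR-30e-3p was lowest at 2.22, had a median of 3.27 and was highest at 4.51 in HCC mice. In non-HCC mice 1 to 5 it was 1.92, 1.05, 1.49, 1.83 and 0.46. No HCC mouse overlapped the non-HCC mice, the closest being HCC mouse 4 with 2.22 and non-HCC mouse 1 with 1.92. The mean was 3.44 ± 0.76 (SD, n = 8) with HCC and 1.35 ± 0.60 (SD, n = 5) without, a 4.26-fold difference in the ratio (exact permutation p = 0.000777, adjusted p = 0.00350). Set against miR-30e-3p, 15.1% of 252 miRNAs were separated in the same way and 0.397% the opposite way. With the alike libraries summed the difference was 1.99 (exact permutation p = 0.00794, adjusted p = 0.0238).

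**Figure D5:**
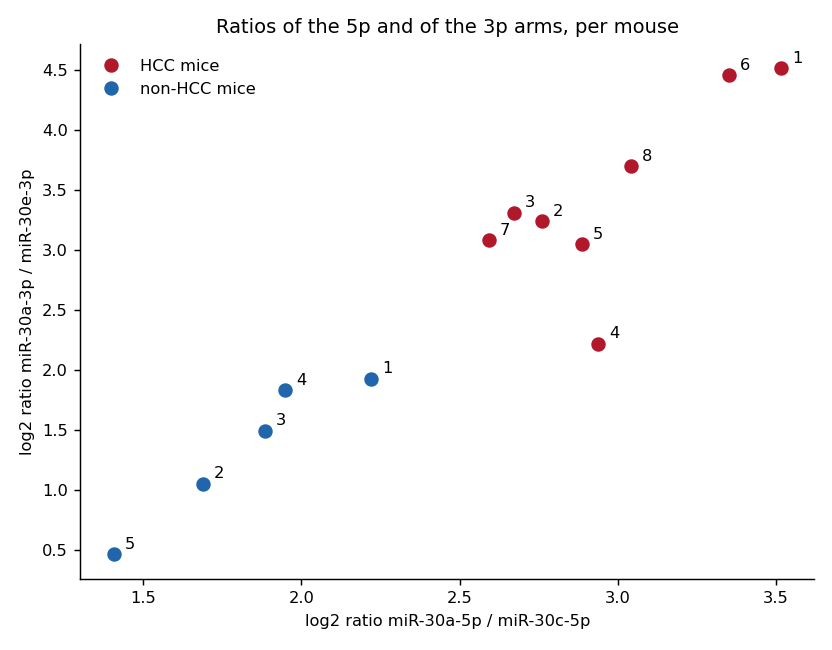
Log2 ratio of miR-30a-3p to miR-30e-3p against the log2 ratio of miR-30a-5p to miR-30c-5p, with 1 point per mouse labelled by its number within the group. All 8 HCC mice lie at 2.59 or more on the horizontal axis and at 2.22 or more on the vertical axis, and HCC mice 1 and 6 lie close together at the upper right.

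Between the arms of 1 hairpin no difference passed the threshold. In Mir30a the log2 ratio of the 5p to the 3p arm was 4.31 to 5.31 with a median of 4.65 in HCC mice, and 5.20, 4.75, 5.07, 5.02 and 4.97 in non-HCC mice. Of those with HCC, 5 lay below and 2 above all non-HCC mice (difference -0.23 with a standard error of 0.16, exact permutation p = 0.239, adjusted p = 0.308). In Mir30e it was 6.92 to 9.27 with a median of 7.50 in HCC mice, and 7.85, 6.45, 7.31, 7.49 and 6.52 in non-HCC mice. HCC mice 3, 7 and 8 exceeded all non-HCC mice with 9.27, 9.03 and 8.15 (difference 0.66 with a standard error of 0.43, exact permutation p = 0.199, adjusted p = 0.298).

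HCC mice also differed among themselves in miR-122-5p, the main miRNA of hepatocytes. It made up 40.98%, 29.2%, 2.20%, 9.53%, 28.3%, 42.7%, 2.39% and 17.8% of the miRNA UMIs of HCC mice 1 to 8, and 0.180% to 0.424% of those of non-HCC mice. HCC mice 1 and 6, with the most miR-122-5p, had the highest ratios of miR-30a-5p to miR-30e-5p, 1.40 and 1.41 on the log2 scale. HCC mice 3 and 7, with the least, had the lowest, -0.85 and -0.72, within the range of the non-HCC mice. In the ratio of miR-30a-5p to miR-30c-5p these mice, with 2.67 and 2.59, were still higher than any non-HCC mouse. Between these extremes, which are 2 pairs of alike libraries, HCC mice 2 and 5, also alike, had 0.73 and 0.60 for miR-30a-5p to miR-30e-5p. In this log2 ratio the order by miR-122-5p was broken only between HCC mice 4 and 8. HCC mouse 4, with 9.53% miR-122-5p, had 0.56, and HCC mouse 8, with 17.8%, had 0.29. The ratios that separated the groups kept this order less closely, though HCC mice 1 and 6 were highest in both. For miR-30a-5p to miR-30c-5p, HCC mice 8 and 4 had 3.04 and 2.94, above HCC mice 2 and 5 with 2.76 and 2.89. For miR-30a-3p to miR-30e-3p, HCC mice 3 and 7 had 3.31 and 3.08, above HCC mouse 5 with 3.04. HCC mouse 4 had the lowest ratio of miR-30a-3p to miR-30e-3p of all HCC mice. The part of liver RNA in these ratios was not tested.

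The members did not move as 1 unit over the 13 mice. As a measure of likeness that needs no library scale, the SD over the mice of the log2 ratio of each pair of members was taken. Over all 13 mice, where a difference between the groups adds to the SD, it was smallest for the arms of Mir30a, with 0.337, followed by miR-30b-5p with miR-30c-5p, with 0.392. Within genomic pairs it was 0.472 for miR-30b-5p with miR-30d-5p, 0.475 for miR-30e-5p with miR-30c-5p and 0.652 for miR-30a-5p with miR-30c-5p. Within the HCC mice alone miR-30a-5p with miR-30c-5p came first instead of last of these 3, with 0.323, the smallest of all pairs of members. The SD there was 0.578 for miR-30b-5p with miR-30d-5p and 0.597 for miR-30e-5p with miR-30c-5p. Over the 13 mice it was largest for miR-30a-3p with miR-30e-3p, with 1.26. In non-HCC mice alone, the SD of miR-30a-5p with miR-30e-5p was 0.182, against 0.847 in HCC mice.

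Set against the mean log2 level of the other members of the 5p arm, or of all 5 for other miRNAs, the closest miRNA among the 253 with at least 100 UMIs in each mouse was miR-378a-5p, with an SD of 0.211, followed by miR-324-5p with 0.240 and miR-532-5p with 0.240. This order is over all 13 mice, and within the groups miR-324-5p was closer, with 0.157 in HCC and 0.113 in non-HCC mice against 0.230 and 0.194 for miR-378a-5p. Of the members, miR-30d-5p ranked at 8 with 0.297, miR-30b-5p at 12 with 0.332, miR-30c-5p at 13 with 0.334, miR-30e-5p at 52 with 0.514 and miR-30a-5p at 89 with 0.629, and the 3p arms at 152 and 169. The median SD over the 253 miRNAs was 0.726, so that the 5 members of the 5p arm were all closer than the median. A minimum of 1000 UMIs in each mouse leaves each SD unchanged and only removes miRNAs. Of the 3 closest, only miR-532-5p reached that minimum.

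The other arms of these hairpins and 2 further relatives were present at low counts. Over the 13 mice, miR-30d-3p had 46 to 235 UMIs, miR-30b-3p 17 to 79, miR-30c-2-3p 11 to 123 and miR-30c-1-3p up to 60, being listed at 0 in HCC mouse 3. MiR-384-5p, which shares the seed of the 5p arm, had 18 to 154 UMIs. MiR-30f, from the strand opposite Mir30e, had 77 to 222 UMIs, and its sequence holds the letters of that seed 1 base earlier than in the other members, so that its own seed is another.
miR-30f: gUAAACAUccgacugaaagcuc
miR-384-5p: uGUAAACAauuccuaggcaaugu
Of these 6, 0 passed the threshold in edgeR, DESeq2 or limma, against 7.51% of all miRNAs in edgeR, and 0 had an unadjusted edgeR p under 0.05 on the spike-in scale. On other scales, miR-30b-3p had an unadjusted edgeR p of 0.0135 with TMM factors (log2 fold change -0.99, adjusted p = 0.0916), as it had 0.0238 in DESeq2 with its own size factors (adjusted p = 0.119), and miR-384-5p had an unadjusted edgeR p of 0.0404 with UniSP4 alone (adjusted p = 0.201). Their log2 fold changes on the spike-in scale lay between -0.30 for miR-30b-3p and 1.31 for miR-384-5p, which had the smallest p (edgeR p = 0.0651, adjusted p = 0.297). The value for miR-384-5p leaned on HCC mouse 4, which had the 154 UMIs, and was 0.79 without it (edgeR p = 0.219).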

How the data were processed

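Plasma small RNA of 13 C3H mice was sequenced with molecular barcodes. The authors aligned the reads to GRCm38 (Bowtie2 is named in the submitters' processing notes), annotated miRNAs by miRBase 20 and the deposited table holds raw UMI counts for each miRNA in each mouse. A second deposited table of counts, for F2 mice, has 53 columns whose names match no label, and none was used, so co-variation over F2 mice was not analysed here. Columns were assigned to mice by the mouse number in the labels.

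HCC and non-HCC mice were compared with edgeR 4.0.16 in R 4.3.3 (quasi-likelihood test, Benjamini-Hochberg over the 1452 miRNAs that reached 5 UMIs in 5 or more mice, threshold 0.05), with the mean of UniSP2 and UniSP4 as library scale. The lowest listed count above 0 is 10, so the filter acts at 10 UMIs. Standard errors (SE) of fold changes were derived as the absolute log2 value divided by the root of F. Levels use a pseudocount of 1 UMI. Ratios and shares were compared by exact permutation over all splits of the mice, with numpy 2.4.6, pandas 2.3.3 and scipy 1.17.1 in Python 3.11.15. Alternatives included TMM factors, total UMIs, single spike-ins, limma 3.58.1, DESeq2 1.42.0, other filters, a replicate block and leaving out single mice. Summing alike libraries was chosen after seeing the data. The members, lists and ratios were chosen with earlier results of these data known. Named are the 7 members, 6 relatives and the 3 miRNAs closest to the 5p arm. The scripts were tested on simulated data. Gene positions are from GENCODE M21. The labels do not say that mice are from separate litters or runs, and p-values measure the spread between these samples only.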

Additional observations from a re-analysis of the deposited data

Results flagged for a closer look

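In non-HCC mouse 5, the log2 ratio of miR-30a-5p to miR-30e-5p was -1.09, against -0.75 in the next mouse of its group, and this gap took up 0.761 of the whole spread among the 5 mice, which is why the mouse is singled out. It was also the lowest of its group in the ratios 30a-5p/30c-5p and 30a-3p/30e-3p. Levels, ratios and shares were searched for such mice in 34 groups. Chance gives such a mouse in about 1 in 20 groups, so finding 1 over 34 groups is not rare.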

How the results depend on the processing

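The differences in the log2 ratios of miR-30a-5p to miR-30c-5p, miR-30d-5p to miR-30a-5p and miR-30a-3p to miR-30e-3p kept their direction and stayed past the threshold under other pseudocounts, without any 1 mouse (1.03 to 1.24, -0.86 to -0.70 and 1.87 to 2.27 on the log2 scale) and with the alike HCC libraries summed. That of miR-30a-5p to miR-30e-5p was 1.06 to 1.38 without 1 mouse and 1.20 with alike libraries summed, and lost its call as given in the report. Differences near 0 changed sign without 1 mouse. That of miR-30e-5p to miR-30c-5p was -0.20 to 0.025, that of miR-30b-5p to miR-30d-5p -0.10 to 0.14 (and -0.012 with alike libraries summed), and the log2 family share -0.060 to 0.048. The number of all miRNAs called was 44 under limma, 222 under DESeq2 with its own size factors (173 higher and 49 lower), 183 under DESeq2 with spike-in size factors, and 44 to 157 without 1 mouse, falling by more than 1.5 times without HCC mouse 2 (65) or non-HCC mice 1 to 4 (44, 47, 47 and 53). With TMM factors edgeR called 107 higher and 32 lower miRNAs. Members called were 1 of 7, miR-30a-3p, under DESeq2 with spike-in size factors and 1 of 7 with the replicate number as a block, again miR-30a-3p (edgeR adjusted p = 0.0492), and 0 otherwise. The replicate numbers do not pair the mice: same-numbered HCC and non-HCC mice had correlations of their deviations between -0.131 and 0.0707. With the block edgeR called 145 miRNAs. Fold changes turned sign under TMM factors, total UMIs and DESeq2 with its own size factors for miR-30c-5p (-0.49, -0.44 and -0.44), miR-30d-5p (-0.18, -0.084 and -0.13) and miR-30e-5p (-0.54, -0.48 and -0.49), and under limma for miR-30c-5p (-0.12) and miR-30e-5p (-0.18). Without 1 mouse, miR-30e-5p was -0.19 to 0.52 and miR-30e-3p -0.60 to 0.48. The fold changes of miR-30b-5p, miR-30c-5p and miR-30d-5p ranged from 0.51 to 1.32, 0.04 to 0.81 and 0.37 to 0.82, and fell by more than 1.5 times without HCC mouse 2 (0.51, 0.04 and 0.38) or HCC mouse 5 (0.56, 0.07 and 0.37), as did that of miR-30c-5p without non-HCC mouse 1 (0.27). Of the 3 closest miRNAs, 1 reached the higher minimum, which removes miRNAs without changing an SD. The causes of the other changes were not tested. With the alike HCC libraries summed, edgeR called 97 of 1401 miRNAs, each higher, and 0 of 7 members. MiR-30a-5p then had a log2 fold change of 1.52 (edgeR adjusted p = 0.225) and miR-30a-3p of 1.84 (edgeR adjusted p = 0.183). The difference in the log2 family share was 0.040 (exact permutation p = 0.802). With 5 against 5 libraries no permutation p can fall below 0.00794.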
